A study of Mus musculus with 10 samples.

Results

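The p38 MAPK cascade was examined here as 10 genes, Map3k5, Map2k3, Map2k6, Mapk11, Mapk12, Mapk13, Mapk14, Mapkapk2, Mapkapk3 and Mef2c, taken by their symbols from the 55487 genes of the deposited table. Each symbol matched a single row. Expression was measured by RNA sequencing of intestinal epithelial cells (IECs), the cells that line the colon, from 5 WT and 5 RhoB-/- mice of the C57BL/6J strain, with no treatment named in the labels, which number the libraries of each genotype as replicates. RhoB-/- mice lack both copies of the gene for the small GTPase RhoB. The methods describe no cell type restriction of the knockout, and they describe WT mice that were purchased and knockout mice that were made at another centre, so genotype and the origin of the mice cannot be told apart. The labels give no age and no sex, while the methods describe young adult mice and call the purchased WT mice male. Values are TPM, transcripts relative to a fixed library total, which are scaled for transcript length and library size, so that levels of different genes can be set side by side, and the read depth behind each value is unknown.

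The p38 kinases are the stress-activated branch of the mitogen-activated protein kinases. Stress sensors such as ASK1, the product of Map3k5, phosphorylate the kinases MKK3 (Map2k3) and MKK6 (Map2k6), which in turn phosphorylate a threonine and a tyrosine in the activation loop of p38. Active p38 then phosphorylates the kinases MK2 (Mapkapk2) and MK3 (Mapkapk3) and transcription factors such as MEF2C. In the intestinal epithelium this pathway is known for its part in the response to injury and inflammation and in the control of proliferation. RNA levels describe the supply of transcripts and do not measure phosphorylation.

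The label check and the purity of the libraries bear on every value. Rhob itself was at 170.5 to 388.7 TPM in WT mice and at 0.09 to 0.57 TPM in RhoB-/- replicates 1 to 4, but the library labelled RhoB-/- replicate 5 held 110.9 TPM of it. This library was kept in its labelled group, and the calls of the p38 genes and of the list genes are also given without it. Epithelial markers dominated every library, with the summed TPM of 9 such genes at 20349 to 26443 in WT and 21836 to 38759 in RhoB-/- mice, against at most 22.9 for 6 B and plasma cell markers and 35.1 for 6 fibroblast markers. Mitochondrial transcripts took 17.5% to 26.5% of the TPM in WT and 10.3% to 22.4% in RhoB-/- libraries, and the median log2 fold change of the 12870 genes tested was -0.13. In such bulk samples, fewer cells of a type and less RNA per cell cannot be told apart.

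Of the 10 genes, 8 had a mean TPM of at least 1 and were tested with limma. At an adjusted p below 0.05, 2 were higher in RhoB-/- mice (Mapk13 and Map2k3) and 2 were lower (Map2k6 and Map3k5). Over all tested genes, 21.2% were called at this threshold, 7.73% higher and 13.5% lower. WT and RhoB-/- libraries were fully apart for Mapk13, which was higher, and for Map2k6 and Map3k5, which were lower. Such a separation was seen in 14.5% of all tested genes, with 5.97% higher and 8.55% lower. Under the rule that the study names, p below 0.05 without adjustment together with more than 1.5-fold change, 0 of the 8 genes were higher and 2 were lower, against 14.7% of all tested genes (6.37% higher and 8.33% lower). The change was taken on the log2(TPM + 1) scale, where Mapk13 fell just short of that limit, while the ratio of its mean TPM was just above it. Centring of the libraries on their median deviation from the gene means, which removes the shift of the median gene, gave 4 higher and 2 lower among the 8, and 2010 higher and 1645 lower among all tested genes, against 995 and 1734 without it. The call of Map2k3 was lost without any one of 8 of the 10 libraries. Centring lifted Mapk14 and Mapkapk2 past the threshold.

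The sequences before the start sites of the 4 genes called are shown because these are the members whose RNA differed. Each is the stretch of 250 bases that ends just before the start of the RefSeq transcript nearest to the gene's annotated 5′ end, read on the strand of the gene in GRCm38.p6, with matches to the motifs searched in capitals. For Mapk13 it is chr17:28769067-28769316, for Map2k3 chr11:60931804-60932053, for Map2k6 chr11:110398852-110399101 and for Map3k5 chr10:19934276-19934525, all on the plus strand.
Mapk13: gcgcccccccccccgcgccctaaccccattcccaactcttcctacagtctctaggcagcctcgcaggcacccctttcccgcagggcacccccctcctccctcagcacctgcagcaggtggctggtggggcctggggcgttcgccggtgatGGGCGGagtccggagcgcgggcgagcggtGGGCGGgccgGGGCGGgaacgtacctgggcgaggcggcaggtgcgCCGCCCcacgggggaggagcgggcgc
Map2k3: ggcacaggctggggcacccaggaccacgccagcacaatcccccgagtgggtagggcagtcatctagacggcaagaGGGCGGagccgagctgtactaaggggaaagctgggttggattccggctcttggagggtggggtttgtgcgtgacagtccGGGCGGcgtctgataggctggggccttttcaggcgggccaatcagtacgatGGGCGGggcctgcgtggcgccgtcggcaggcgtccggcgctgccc
Map2k6: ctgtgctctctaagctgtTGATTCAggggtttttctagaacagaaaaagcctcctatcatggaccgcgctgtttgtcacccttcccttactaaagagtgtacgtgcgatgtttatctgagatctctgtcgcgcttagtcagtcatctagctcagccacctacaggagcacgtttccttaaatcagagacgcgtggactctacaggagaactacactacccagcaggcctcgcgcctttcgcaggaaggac
Map3k5: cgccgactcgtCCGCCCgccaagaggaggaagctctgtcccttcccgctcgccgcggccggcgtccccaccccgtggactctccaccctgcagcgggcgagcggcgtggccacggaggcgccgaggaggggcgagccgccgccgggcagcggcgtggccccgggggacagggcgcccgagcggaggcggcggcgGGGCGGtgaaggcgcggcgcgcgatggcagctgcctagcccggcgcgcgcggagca
Both strands were searched for the GC box (GGGCGG), the TATA box (TATAAA), AP-1 (TGANTCA), CRE (TGACGTCA), GAS (TTCNNNGAA) and the ISRE element, where matches could overlap. The GC box was found 4 times before Mapk13, 3 times before Map2k3 and 2 times before Map3k5, and it occurred in 32.7% of the 32851 RefSeq promoter windows of the same length. The window of Map2k6 shown held no GC box and 1 AP-1 motif, which occurred in 6.75% of all windows. Map2k6 also had RefSeq start sites farther downstream, whose windows held 1 GC box or 1 TATA box and no AP-1 motif. Which start was in use was not measured. The other motifs were not found in the 4 windows shown. In these, G and C made up 76.0% (Mapk13), 67.6% (Map2k3), 50.4% (Map2k6) and 80.8% (Map3k5) of the bases, against a median of 52.4% over all windows. These matches are descriptions of the letters, and binding was not measured.

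**Figure D1:**
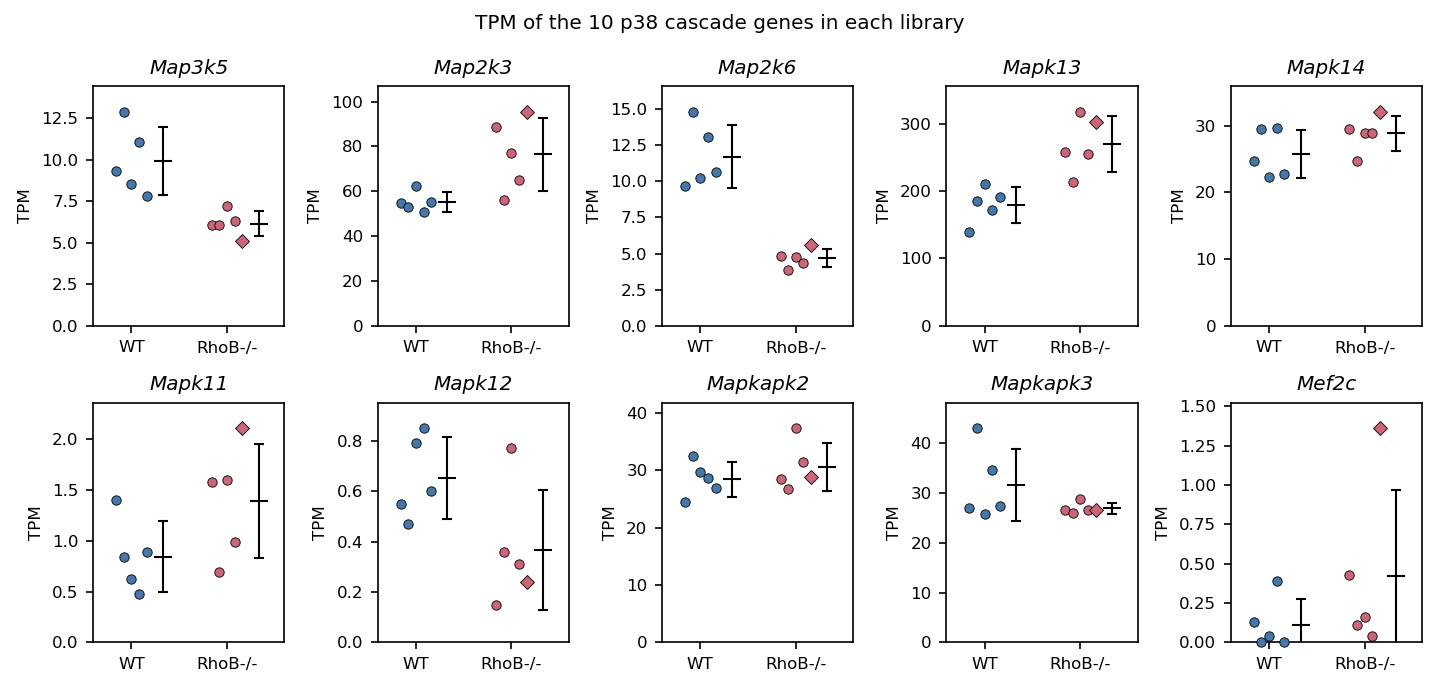
TPM (y axis, from 0) of the 10 p38 cascade genes in 5 WT and 5 RhoB-/- libraries. Each point is a library, the diamond is RhoB-/- replicate 5, and the bar beside the points is the mean ± SD (n = 5), drawn only above 0 for Mef2c. The groups are apart for Map3k5, Map2k6 and Mapk13, where Map2k6 in RhoB-/- libraries is at most 5.58 TPM and no WT library is below 9.68 TPM.

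Map3k5 encodes ASK1, a kinase at the top of the cascade that responds to oxidative stress. It lies on chromosome 10 from 19934472 to 20142753 on the plus strand and overlaps no other annotated gene. Its TPM in WT replicates 1 to 5 was 9.33, 12.89, 8.53, 11.06 and 7.79. In RhoB-/- replicates 1 to 5 it was 6.07, 6.08, 7.22, 6.29 and 5.13. Every RhoB-/- library was below every WT library, although the highest RhoB-/- and the lowest WT value were close. The mean fell from 9.92 ± 2.06 to 6.16 ± 0.744 TPM (SD, n = 5 each), a log2 fold change of -0.60 (standard error 0.14, limma adjusted p = 0.0112). Without RhoB-/- replicate 5 it was -0.54 (limma adjusted p = 0.0302), and all 10 fits that left out 1 library kept an adjusted p below 0.05.

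The kinases of the middle layer, MKK3 and MKK6, moved in opposite directions. Map2k6 (chromosome 11, 110399122 to 110525522, plus strand) had 9.68, 14.80, 10.24, 13.06 and 10.60 TPM in WT replicates 1 to 5. The RhoB-/- replicates, in the same order, had 4.86, 3.86, 4.75, 4.38 and 5.58 TPM. The lowest WT library was well above the highest RhoB-/- library, and the library with residual Rhob was no exception. The mean fell from 11.7 ± 2.17 to 4.69 ± 0.634 TPM (SD, n = 5 each), which left 0.401 of the WT level. Its log2 fold change of -1.15 (standard error 0.13, limma adjusted p = 1.44e-04) was the largest of the 8 tested genes, and it stayed between -1.21 and -1.06 when each of the 10 libraries was left out in turn, with an adjusted p of at most 6.99e-04 (limma). Without RhoB-/- replicate 5 it was -1.20 (limma adjusted p = 2.93e-04).

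Map2k3, which encodes MKK3, lies on the same chromosome from 60932033 to 60952811 on the plus strand. Its TPM was 54.72, 53.19, 62.49, 50.89 and 55.14 in WT replicates 1 to 5. In RhoB-/- replicates 1 to 5 it was 88.67, 56.01, 77.28, 65.00 and 95.48. WT libraries lay close together, whereas RhoB-/- libraries were spread, and replicate 2 of RhoB-/- was within the WT range. The mean rose from 55.3 ± 4.36 to 76.5 ± 16.3 TPM (SD, n = 5 each), a log2 fold change of 0.44 (standard error 0.14, limma adjusted p = 0.0477). This call was the weakest of the 4. The adjusted p was 0.106 without RhoB-/- replicate 5 (log2 fold change 0.35, limma), and 8 of the 10 fits that left out 1 library gave an adjusted p above 0.05, up to 0.115 without RhoB-/- replicate 1 (limma). Only the fits without WT replicate 3 or without RhoB-/- replicate 2 kept it below 0.05.

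The balance between both kinases therefore differed in each library. The ratio of Map2k3 to Map2k6 TPM was 5.65, 3.59, 6.10, 3.90 and 5.20 in WT replicates 1 to 5. It was 18.2, 14.5, 16.3, 14.8 and 17.1 in RhoB-/- replicates 1 to 5. The ranges were far apart, and the ratio rested on a lower Map2k6 in every RhoB-/- library, including replicate 2, whose Map2k3 was at the WT level. The summed TPM of Map2k3 and Map2k6 was 67.0 ± 3.59 in WT and 81.2 ± 16.9 in RhoB-/- mice (SD, n = 5 each), and its ranges overlapped.

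**Figure D2:**
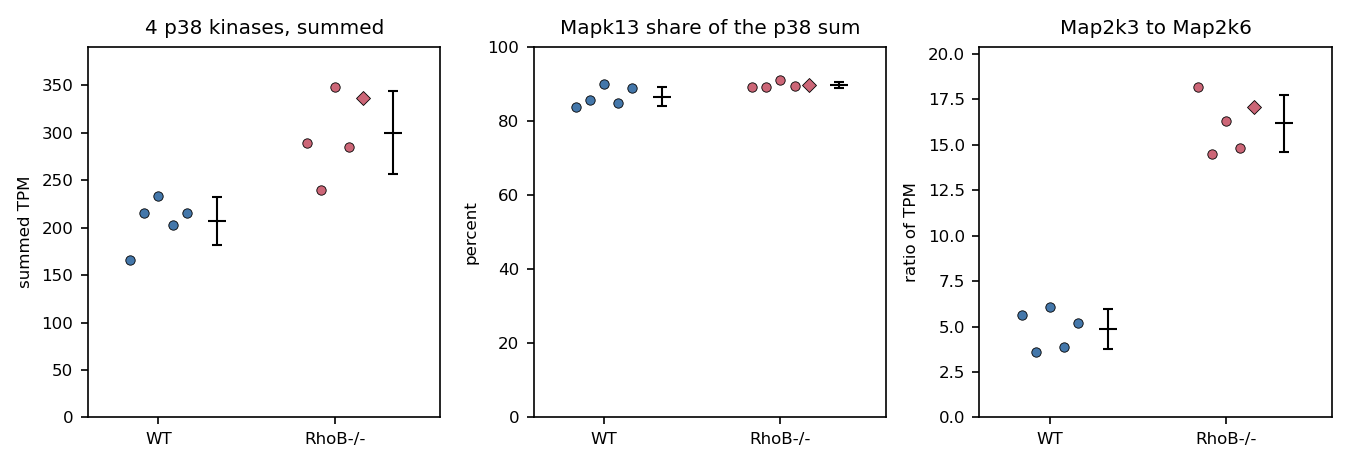
Left, TPM summed over Mapk11, Mapk12, Mapk13 and Mapk14; middle, percent of that sum that was Mapk13; right, ratio of Map2k3 to Map2k6 TPM. Points are libraries of WT and RhoB-/- mice, the diamond is RhoB-/- replicate 5, and bars are mean ± SD (n = 5). The ratio on the right is 3.59 to 6.10 in WT and 14.5 to 18.2 in RhoB-/- libraries, while the share in the middle overlaps between the groups.

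Of the 4 p38 kinases, Mapk13 was by far the most abundant. Mapk13 encodes p38δ, an isoform known from epithelia and other secretory tissues, Mapk14 the widely expressed p38α, Mapk11 p38β, and Mapk12 p38γ, known from muscle. Mapk13 had 139.1, 184.6, 209.9, 172.3 and 191.8 TPM in WT replicates 1 to 5. RhoB-/- replicates 1 to 5 had 258.3, 214.0, 317.5, 255.2 and 302.6 TPM. All 5 RhoB-/- libraries were above all WT libraries, but the highest WT library, replicate 3, and the lowest RhoB-/- library, replicate 2, were separated by little. The mean rose from 179.5 ± 26.4 to 269.5 ± 41.3 TPM (SD, n = 5 each), with a log2 fold change of 0.58 (standard error 0.14, limma adjusted p = 0.0138). It was 0.54 without RhoB-/- replicate 5 (limma adjusted p = 0.0371), and the adjusted p stayed below 0.05 in each of the 10 fits that left out 1 library. Leaving out the mitochondrial genes gave 0.51 (limma adjusted p = 0.00402), and centring gave 0.70 (limma adjusted p = 0.00103).

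Mapk14 lies 20890 bases from Mapk13 on chromosome 17, on the same strand and with no annotated gene between them. Its TPM was 24.66, 29.52, 22.24, 29.67 and 22.72 in WT replicates 1 to 5. It was 29.47, 24.75, 28.84, 28.91 and 32.07 in RhoB-/- replicates 1 to 5. The groups overlapped over most of their range, and the log2 fold change was 0.16 (95% interval -0.09 to 0.41, limma adjusted p = 0.325). With centred libraries it was 0.28 (limma adjusted p = 0.0187). The annotated gene AC170998.1 overlaps Mapk14 on the same strand, so reads at that stretch could belong to either.

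The pair Mapk11 and Mapk12, which lie 1782 bases apart on chromosome 15, was at low levels in all libraries. Mapk11 had 0.48 to 1.40 TPM in WT mice against 0.69 to 2.11 in RhoB-/- mice, with medians of 0.84 and 1.58. It passed the filter on the strength of the RhoB-/- libraries, since the WT mean was 0.846 TPM, and its log2 fold change of 0.36 (95% interval -0.11 to 0.83, limma adjusted p = 0.243) was within the spread. Mapk12 was below the filter, at 0.55, 0.47, 0.79, 0.85 and 0.60 TPM in WT replicates 1 to 5. In RhoB-/- replicates 1 to 5 it was at 0.15, 0.36, 0.77, 0.31 and 0.24 TPM. Except for replicate 3, the RhoB-/- libraries were below all WT libraries. The difference of the means was -0.286 TPM (exact permutation test over all labelings, two-sided p = 0.0635). When each library was left out in turn it stayed between -0.387 and -0.232 TPM.

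Summed over these 4 genes, p38 transcripts were at 165.7 to 233.6 TPM in WT mice against 239.8 to 348.7 in RhoB-/- mice. Mapk13 made up 86.6% ± 2.59 of the sum in WT and 89.7% ± 0.765 in RhoB-/- libraries (SD, n = 5 each), and Mapk14 12.6% ± 2.46 and 9.68% ± 0.848. Mapk11 was at most 0.845% and Mapk12 at most 0.418% of it in any library. The p38 sum thus followed Mapk13, and the shares overlapped between the groups.

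The genes of MK2 and MK3, the kinases that p38 activates, were not called in either direction. Mapkapk2 had 24.41 to 32.47 TPM in WT mice against 26.68 to 37.34 in RhoB-/- mice, and the log2 fold change was 0.10 (95% interval -0.15 to 0.34, limma adjusted p = 0.569). Centring gave 0.21, past the threshold (limma adjusted p = 0.0486). Mapkapk3 had 27.01, 42.95, 25.69, 34.67 and 27.44 TPM in WT replicates 1 to 5. RhoB-/- libraries were tightly grouped, at 25.89 to 28.83 TPM, and lay in the lower part of the WT range. The log2 fold change of Mapkapk3 was -0.20 (95% interval -0.49 to 0.10, limma adjusted p = 0.310). A p above the threshold does not show that these levels were the same.

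Mef2c, a transcription factor of muscle, endothelium, B cells and myeloid cells that p38 activates, was close to 0 in these epithelial libraries. It had 0.13, 0, 0.04, 0.39 and 0 TPM in WT replicates 1 to 5. In RhoB-/- replicates 1 to 5 it had 0.43, 0.11, 0.16, 0.04 and 1.36 TPM. Replicate 5 of RhoB-/- was the highest, and the other 9 libraries overlapped. The difference of the means was 0.308 TPM (exact permutation test, two-sided p = 0.214), and the RhoB-/- mean was 0.185 TPM without replicate 5. That library also had the highest sums of 6 B and plasma cell markers (22.9 TPM, against 1.86 to 7.84 in the other RhoB-/- libraries and a median of 1.34 in WT), of 6 myeloid markers (14.9, against 4.26 to 8.56 and 1.93 to 3.32) and of 6 fibroblast markers (35.1, against 5.72 to 15.1 and 2.98 to 4.04). The fibroblast sum of that library was mostly Dcn (24.51 TPM) and Col3a1 (8.22 TPM). Of the myeloid markers, Csf1r, Itgax and Itgam were higher in other RhoB-/- libraries. Endothelial markers overlapped between the groups, at 1.44 to 2.88 TPM in RhoB-/- and 1.38 to 2.16 TPM in WT libraries. The part of these cells in the Mef2c value was not tested.

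**Figure D3:**
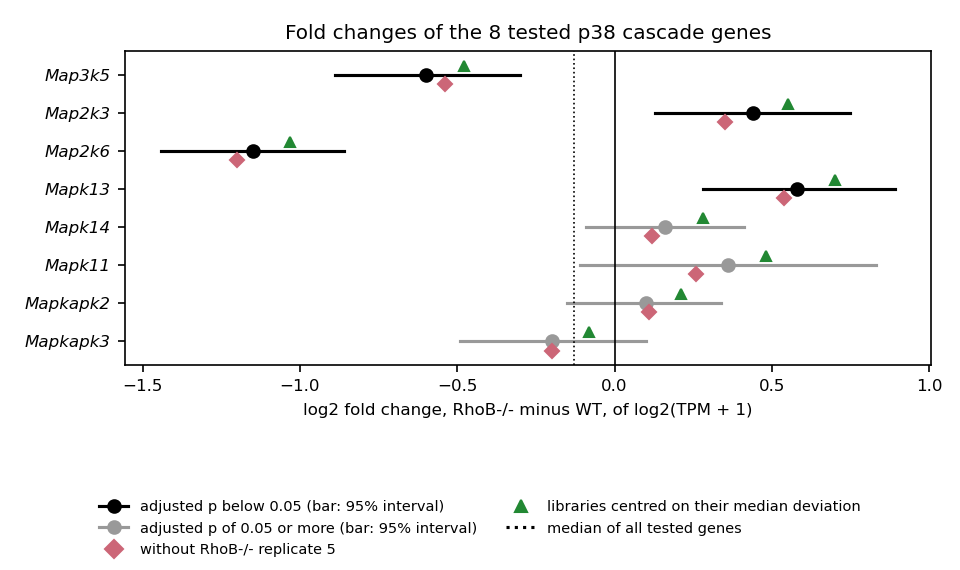
Log2 fold change (x axis, RhoB-/- minus WT on log2(TPM + 1)) of the 8 tested genes, with the 95% interval as a bar. Black marks an adjusted p below 0.05 (limma) and grey the others, diamonds are values without RhoB-/- replicate 5, triangles are values with libraries centred on their median deviation, and the dotted line is the median of all tested genes at -0.13. Map2k6 at -1.15 lies farthest from 0, and no gene changes sign in these alternatives.

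The order of levels was similar in both genotypes at the top and changed among neighbours below. In WT mice it was Mapk13, Map2k3, Mapkapk3, Mapkapk2, Mapk14, Map2k6, Map3k5, Mapk11, Mapk12 and Mef2c, from 179.5 down to 0.112 TPM. Mapk13 was above 95.4% of all tested genes and Map2k3 above 84.9%, whereas Map2k6 and Map3k5 were near the middle, above 48.7% and 44.3%. The ranges of the 3 genes from Mapkapk3 to Mapk14 overlapped in WT libraries, as did those of Map2k6 and Map3k5 and those of Mapk11 and Mapk12. In RhoB-/- mice Map2k6 dropped below Map3k5, at 4.69 against 6.16 TPM with overlapping ranges, and Map2k6 was then above 28.9% of the tested genes. Mapkapk3 came after Mapkapk2 and Mapk14 there, and Mef2c came before Mapk12, again with overlapping ranges. Without RhoB-/- replicate 5, Mef2c was below Mapk12 in RhoB-/- mice as well, at a mean of 0.185 against 0.398 TPM.

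The pattern of Mapk13 over the libraries was compared with that of all other tested genes by the root mean square difference of log2(TPM + 1), each gene centred on its mean over the 10 libraries. The 5 genes closest to Mapk13 were Cldn7, Cystm1, Ldha, Ctsz and Tspan1, with differences of 0.06 to 0.09 on the log2 scale, against a median of 0.45 over 12869 genes. Cldn7, a claudin of the epithelial junction, had a mean of 642.3 TPM in WT mice against 935.9 in RhoB-/- mice, and a log2 fold change of 0.53. Those of the other 4 were 0.47 to 0.67. This likeness includes the difference between the genotypes and carries no test.

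Markers of cell state and of other cell types were read beside these genes. For scale, 7.73% of all tested genes were called higher and 13.5% lower. The sum of 8 proliferation markers was 305.1 to 414.8 TPM in WT mice against 162.9 to 426.6 in RhoB-/- libraries, and 2 of the 8 were called lower (Mki67 and Mcm5). The highest sum of all 10 libraries was that of RhoB-/- replicate 3. Of 9 epithelial markers, 3 were called, each higher. They were Krt20, a keratin of mature surface colonocytes, with a log2 fold change of 1.17, Vil1, an actin bundler of the brush border, with 0.65, and Cdx2, a transcription factor of intestinal identity, with 0.42 (limma adjusted p = 0.00224, 0.00638 and 0.0447). Of 4 tested stem cell markers, Smoc2 was called lower, with a log2 fold change of -1.05 (limma adjusted p = 0.00604). Lgr5, Axin2 and Ascl2 had -0.31, -0.33 and 0.20 (limma adjusted p = 0.227, 0.159 and 0.469). Of 8 goblet cell markers, Clca1 and Fcgbp were called higher, while the median log2 fold change of the list was 0.05 and Agr2 and Muc2 had -0.59 and -0.19 (limma adjusted p = 0.0523 and 0.474). T cell markers were low, and their sum over 6 genes was apart, at 3.72 to 10.2 TPM in WT mice against 14.6 to 18.0 in RhoB-/- libraries. Taken singly, Cd3e, Cd3g and Cd8a were apart, while Cd3d, Cd4 and Trac overlapped. Trac in WT replicate 5, at 3.79 TPM, was above every RhoB-/- library. The part of cell composition in the results for the p38 genes was not tested.

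Lists of 63 other genes around the cascade, compiled by hand from its upstream activators, phosphatases, downstream kinases and substrates and from the JNK and ERK modules, gave 57 tested genes. Of these, 1 was called higher and 9 were called lower in RhoB-/- mice, with a median log2 fold change of -0.06 against -0.13 over all tested genes. The 9 of 57 called lower were near the share of all tested genes called lower, 13.5%. The 1 of 57 called higher compares with 7.73% of all tested genes. The split moved with the scaling, to 12 higher and 9 lower with centred libraries, to 8 and 8 with quantile normalization, and to 2 and 15 without the mitochondrial genes. All tested genes moved too, from 995 higher and 1734 lower to 2010 and 1645, to 1587 and 1975, and to 1101 and 3729 in the same 3 settings. Without RhoB-/- replicate 5, 1 list gene was called higher and 8 lower, and of the 10 listed calls only that of Stmn1 was lost.

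Of 18 upstream activators, 2 were called, both lower, where 13.5% of all tested genes were, and the median log2 fold change was 0.05. Both are Gadd45 genes, whose products bind and activate the kinase MTK1 above p38. Gadd45b had 19.61 to 31.17 TPM in WT mice against 11.45 to 16.27 in RhoB-/- mice, and its log2 fold change was -0.74 (standard error 0.15, limma adjusted p = 0.00527). Gadd45g had 34.82 to 40.97 TPM in WT mice against 20.62 to 29.26 in RhoB-/- mice, with a difference of -0.51 on the log2 scale (limma adjusted p = 0.00947). The groups did not overlap for either gene. With centring, the adjusted p of Gadd45g was 0.0541 (limma). Map3k4, which encodes MTK1 itself, had a log2 fold change of 0.14 (limma adjusted p = 0.394).

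Of 8 tested p38 phosphatases, 1 was called higher and 1 lower, against 7.73% and 13.5% of all tested genes. Ptprr, a tyrosine phosphatase that binds MAP kinases, rose from 8.47 ± 2.47 to 16.5 ± 2.54 TPM (SD, n = 5 each), a log2 fold change of 0.91 (standard error 0.17, limma adjusted p = 0.00417). Dusp4, a nuclear dual-specificity phosphatase of MAP kinases, fell from 5.59 ± 1.94 to 2.75 ± 0.467 TPM (SD, n = 5 each), a log2 fold change of -0.78 (limma adjusted p = 0.0145, and 0.0502 with quantile normalization). The groups did not overlap for either. Dusp1, the best known p38 phosphatase, was far more abundant, at 225.0 TPM in WT mice against 181.1 in RhoB-/- mice, with a log2 fold change of -0.21 (limma adjusted p = 0.573).

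Of 19 tested downstream kinases and substrates, 5 were called, each of them lower, against 13.5% of all tested genes called lower. Hspb1, the small heat shock protein that MK2 phosphorylates, had 36.67, 52.96, 8.76, 34.20 and 5.36 TPM in WT replicates 1 to 5. RhoB-/- replicates 1 to 5 had 1.09, 3.24, 2.35, 3.18 and 2.58 TPM. WT libraries fell into a high and a low set, and all of them were above the RhoB-/- libraries. The log2 fold change was -2.66 (standard error 0.52, limma adjusted p = 0.00510).

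Zfp36l1, an RNA-binding protein that promotes decay of AU-rich mRNAs and is also phosphorylated by MK2, had 30.53 to 54.24 TPM in WT mice against 15.39 to 20.29 in RhoB-/- mice. Its log2 fold change of -1.29 (standard error 0.15, limma adjusted p = 1.37e-04) was of about the size of that of Map2k6, with no overlap between the groups. The others were Cebpb, a transcription factor of inflammation and differentiation, at -1.13, Stmn1, a microtubule regulator, at -0.68, and Mknk2, a kinase of the initiation factor eIF4E, at -0.48 (limma adjusted p = 0.0148, 0.0484 and 0.0127). Their groups overlapped, and the adjusted p of Stmn1 was 0.109 without RhoB-/- replicate 5 (limma). Relatives of the members in this list, Mapkapk5, Mef2a and Mef2d, had log2 fold changes of 0.25, -0.19 and 0.19 (limma adjusted p = 0.139, 0.255 and 0.287). Map3k6, a relative of Map3k5 among the upstream activators, had 0.37 (limma adjusted p = 0.0868), against -0.60 for Map3k5.

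**Figure D4:**
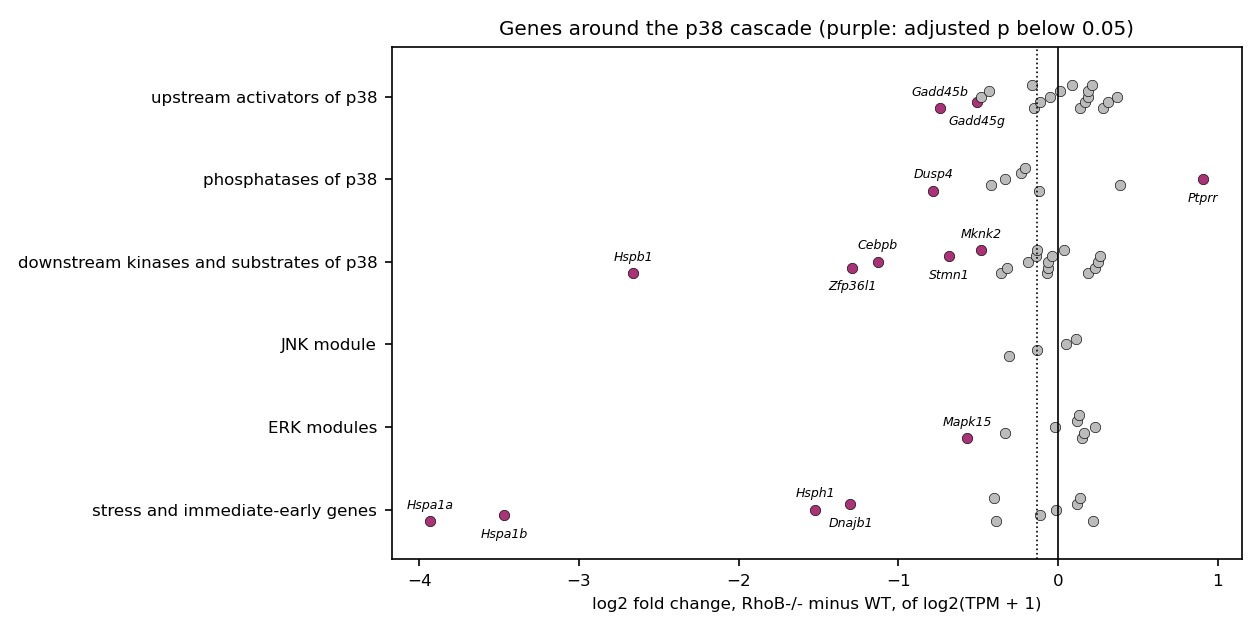
Log2 fold change (x axis, RhoB-/- minus WT on log2(TPM + 1)) of each tested gene of 6 hand-compiled lists (rows). Purple points with names have an adjusted p below 0.05 (limma), grey points do not, vertical offsets within a row only separate points, and the dotted line is the median of all tested genes at -0.13. Of the purple points, Ptprr at 0.91 is the one to the right of 0, and Hspa1a at -3.93 lies farthest to the left.

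The neighbouring MAP kinase modules were counted in the same way, where 21.2% of all tested genes were called at an adjusted p below 0.05. In the JNK module, 0 of 4 tested genes were called, and at an unadjusted p below 0.05 the count was 1 (limma). This was Mapk9, with a log2 fold change of -0.31 (limma adjusted p = 0.0936). The share of all tested genes at an unadjusted p below 0.05 was not counted. In the ERK modules, 1 of 8 tested genes was called, the atypical kinase Mapk15, at 4.14 TPM in WT mice against 2.47 in RhoB-/- mice, with a log2 fold change of -0.57 (limma adjusted p = 0.0444). This call was lost in 12 of the 17 alternatives, with adjusted p values up to 0.120 (limma), among them 8 of the 10 fits that left out 1 library. Mapk3, which encodes the kinase ERK1, had a log2 fold change of 0.12 (limma adjusted p = 0.531), at a WT level of 283.1 TPM. Mapk3 was therefore above Mapk13 in WT mice, and Mapk13 was far above the JNK kinases Mapk8 and Mapk9, which had 13.9 and 18.4 TPM.

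Hspb1 is itself a heat shock gene, so 11 stress and immediate-early genes were set beside it. Of these, 4 were called, all lower, where 13.5% of all tested genes were called lower. The list was compiled by hand with earlier results of these data known, so this count carries no test. All 4 calls below also held without RhoB-/- replicate 5. The heat shock genes Hspa1a, Hspa1b, Hsph1 and Dnajb1 were called lower, with log2 fold changes of -3.93, -3.47, -1.52 and -1.30 (limma adjusted p = 1.20e-07, 5.53e-07, 0.00113 and 3.16e-04). Hspa1a and Hspa1b are near-identical, so reads may be split between them. The 7 immediate-early genes were not called in either direction, and at an unadjusted p below 0.05 the count was 0 (limma). For this threshold, the share of all tested genes was not counted. Fos averaged 1006 TPM in WT mice against 1018 in RhoB-/- mice, and Jun 651.6 and 585.3 TPM. WT libraries were widely spread, at 449.2 to 1458 TPM for Fos and 352.6 to 876.1 TPM for Jun. RhoB-/- libraries had 805.6 to 1216 and 463.6 to 694.2 TPM. These means therefore do not show that the levels were the same. Hspb1 and the 4 heat shock genes were thus all lower in RhoB-/- mice. Within WT mice, Hspb1, Hspa1a and Hspa1b were highest in replicate 2, whereas Hsph1 was highest in replicate 3 and Dnajb1 in replicate 4. What these genes share was not tested.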

How the data were processed

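The authors sequenced IEC RNA of 5 WT and 5 RhoB-/- mice. Paired-end reads were trimmed (SeqPrep, Sickle) and aligned with HISAT2, StringTie was used for assembly, and RSEM gave the gene abundances. The submitters' processing notes name the build GRCm38.p6 and edgeR; versions and the use made of edgeR are not given in the sources used here. The deposited values are TPM per gene and library, with 2 decimals, as the authors gave them, so depth and counting error are unknown and no count test was run. Grouping followed the sample labels.

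Genotypes were compared with limma 3.58.1 in R 4.3.3 (lmFit, then eBayes with trend = TRUE). The scale was log2(TPM + 1), and 12870 genes whose TPM averaged at least 1 entered, with Benjamini-Hochberg adjustment over all of them. Fold changes on this scale understate changes of genes with low TPM. For members that failed this filter, the difference of mean TPM was tested by exact permutation of all labelings, whose smallest p is 0.00794. The procedure was tested on simulated data. The members, the hand-compiled lists and the tests were chosen with earlier results of these data known. The genes named are all members, Rhob, those list genes that were called and did not overlap, or else the gene with the smallest adjusted p of the list, the 5 genes most like Mapk13, and the leading markers; other genes were named after their values were seen. Of 2 overlapping rows named Ddit3, the longer gene was used. Positions are those of GENCODE M21 on GRCm38, promoter sequences those of RefSeq on GRCm38.p6, in which 10 of 10 members had an entry. Alternatives were the pseudocount, the filter on low TPM, centring, quantile normalization, no trend, a fold change threshold, mitochondrial genes left out, a replicate block and each library left out. The labels do not say that libraries with the same replicate number share a batch.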

Additional observations from a re-analysis of the deposited data

Results flagged for a closer look

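Among 42 groups of 5 values, for the 10 members, Rhob and the list genes named for their separation, 3 held a library that stood apart from its group. This rule picks about 1 in 20 groups by chance, which comes to 2.10 here. Rhob in RhoB-/- replicate 5, at 110.9 TPM, had the widest gap, with the other 4 libraries of the group at 0.09 to 0.57 TPM. Mapkapk3 at 28.8 TPM in RhoB-/- replicate 3 stood apart from 4 libraries at 25.89 to 26.59 TPM, a gap that is small beside the spread of WT mice. Dnajb1 at 72.2 TPM in WT replicate 1 was below the other 4 WT libraries, at 123.15 to 139.26 TPM, and still above every RhoB-/- library. No explanation was tested for these values.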

How the results depend on the processing

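Both lower members, Map2k6 and Map3k5, and of the higher members Mapk13 kept their direction and an adjusted p below 0.05 in all 18 other fits (limma). The number of members called higher was 2, and it was 1 without the filter on low TPM, 1 without the trend and 4 with centred libraries, where Mapk14 and Mapkapk2 were added. Mapk12, below the filter, differed by -0.387 to -0.232 TPM in the 10 comparisons that left out 1 library. The exact permutation p was 0.0556 to 0.127 in 9 of them. It was 0.0159 without RhoB-/- replicate 3, the one RhoB-/- library within the WT range. The number of members called higher was 0 under the study's rule of p below 0.05, not adjusted, with more than 1.5-fold change. It was 1 to 2 in the 10 fits that left out 1 library, because Map2k3 lost its call in 8 of them, without each of WT replicates 1, 2, 4 and 5 and of RhoB-/- replicates 1, 3, 4 and 5. The number called lower was 2 in all of these settings.

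In the 5 other lists of the cascade and its neighbours, 1 of 57 tested genes was called higher and 9 lower, against 7.73% and 13.5% of all tested genes. The number called higher was 2 without the filter, 12 with centring, 8 with quantile normalization and 2 without the mitochondrial genes, and 1 to 4 when a library was left out, with 4 without RhoB-/- replicate 2. The number called lower was 15 without the mitochondrial genes and 7 to 13 when a library was left out. Stmn1 and Mapk15 each lost their call in 12 settings. The median log2 fold change of all tested genes was -0.13, against -0.01 with centring and -0.20 without the mitochondrial genes. The cause of the changes in these counts was not tested.

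The replicate block gave 1 member higher and 2 lower, since the adjusted p of Map2k3 was 0.0632 (limma), and 1 higher and 7 lower in the 5 lists. The replicate numbers did not pair the libraries: the correlations of deviations of same-numbered libraries were -0.0874 to 0.072, and 2 of 10 libraries correlated best with their own number. TPM keeps no depth, so whether Mapk11, Mapk12 and Mef2c, all near 1 TPM or below, differed could not be settled by reads.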
